A study of Mus musculus with 4 samples.

Results

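The nuclear genes that encode the proteins of the mitochondrial ribosome were followed in RNA-seq libraries of WT and Pim3-/- ESCs. They were chosen by symbol, as all rows of the gene table named Mrpl or Mrps followed by a number and at most 1 letter. The rule found 78 of the 55418 genes in the table, 49 Mrpl genes of the large subunit and 29 Mrps genes of the small subunit. All 78 had enough counts to be tested, with 253 to 6250 counts per library.

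The cells were of E14, a mouse ESC line grown on gelatin in serum with LIF, a cytokine that sustains self-renewal. WT was represented by 2 cultures and Pim3-/- by 2 independent clones, 1 library each, in which CRISPR/Cas9 had been aimed at Pim3 with guides to exons 4 and 6. Pim3 encodes a serine/threonine kinase, and the comparison asks how the transcriptome of ESCs differs without it. Both groups shared the parental line and the medium. Pim3-/- was present only as these 2 clones, so that a difference between groups and a difference between single cultures or clones cannot be told apart. Which replicate number stands for which clone is not given in the sources used here.

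The mitochondrial ribosome, or mitoribosome, translates the few proteins that mitochondrial DNA encodes, which are all subunits of the respiratory chain and of ATP synthase. Its rRNAs are transcribed from mitochondrial DNA, whereas its proteins are encoded in the nucleus, made in the cytosol and imported. One group of these proteins descends from the ribosome of the bacterial ancestor, and the rest were added in the course of mitochondrial evolution. ESCs divide rapidly, depend largely on glycolysis and keep immature mitochondria.

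Libraries held 22029427 to 25668307 counts. They were scaled with TMM factors of edgeR, 0.828 and 0.883 for WT and 1.167 and 1.172 for Pim3-/-, and levels are given as CPM, counts scaled by library size and these factors. Log2 fold changes are Pim3-/- over WT, and had a median of 0.068 over the 18444 tested genes and of 0.52 when scaled by library totals alone. Adjusted p is the Benjamini-Hochberg adjusted p of edgeR's quasi-likelihood test over all tested genes, and a gene is called lower or higher at an adjusted p under 0.05. Counts of Pim3 itself were 4392 and 4953 for WT and 4970 and 4804 for Pim3-/-. The level of Pim3 thus says nothing on whether the labels are right, and Pim3-/- below means a library labelled so. For its clones the paper reports mutated target sites by sequencing, a loss of Pim3 fragments by qPCR and no PIM3 protein left on a western blot. The reverse primer listed for this qPCR covers a guide target. With 2 against 2 libraries, the smallest p of an exact permutation test (two-sided) is 0.333, and none is given for single values. Of 8 ESC markers 3 were lower (Pou5f1, Nanog and Dppa5a) and Klf4 was higher, and the other 4, Sox2 among them, were not called. The paper reports by qPCR that Pim3-/- ESCs kept their expression of Pou5f1 (Oct4) and Sox2 and had more Nanog. In these libraries the log2 fold change was -0.90 (SE 0.20) for Nanog and -1.12 (SE 0.22) for Pou5f1. The cause of this difference from the paper was not tested. Over all tested genes 16.2% were lower and 17.6% higher. The ESC markers had a median level of 9.31 log2 CPM, and 54.2% of all tested genes above 8 log2 CPM were lower. Of 7 fibroblast markers, Lum, Dcn, Postn and Col3a1 had at most 2 counts in any library, and Thy1 had 400 to 508. Col1a1 had 33 and 38 counts in WT against 140 and 52 in Pim3-/- (log2 fold change 1.09, not called), and Col1a2, which was not tested, had 1 and 3 against 30 and 3. All 6 tested of 7 primitive endoderm markers were higher, though not all of them without WT replicate 1. The summed level of the 7 was 29.8 and 36.9 CPM in WT and 135 and 118 CPM in Pim3-/- libraries. Most of this sum was Lama1, with means of 29.4 CPM in WT and 103 CPM in Pim3-/-. The other markers had group means of at most 6.85 CPM. All 6 markers of 2-cell-like cells were higher too, at 11.1 and 10.3 CPM against 109 and 34.9 CPM in Pim3-/- replicates 1 and 2. The part of these cells in the results below was not tested. In bulk samples, fewer cells of a type and less RNA per cell cannot be told apart.

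The mitoribosomal protein genes were lower in the Pim3-/- libraries almost as a whole. At an adjusted p under 0.05, 65 of the 78 were lower and 13 did not pass, against 16.2% of all tested genes called lower. No member was called higher, at an unadjusted p under 0.05 by edgeR or by the Wald test of DESeq2 either, against 17.6% of all tested genes called higher by edgeR. With a change of at least 1.5-fold in addition, 61 were lower, against 15.5% of all tested genes. In 76 of the 78 both Pim3-/- libraries lay below both WT libraries, which held for 34.2% of all tested genes, and the exceptions were Mrps18a and Mrps30. The 78 members had a median log2 fold change of -0.98, which is -1.05 relative to all tested genes, and the middle of the range ran from -1.27 at the lower quartile to -0.66 at the upper. Without WT replicate 1, 15 members were lower, against 1.88% of all genes tested in that fit, and without WT replicate 2, 43 were lower, against 5.35%, with medians of -0.94 and -1.17. With library totals 38 members were lower, against 5.93% of all genes, with a median of -0.53.

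**Figure D1:**
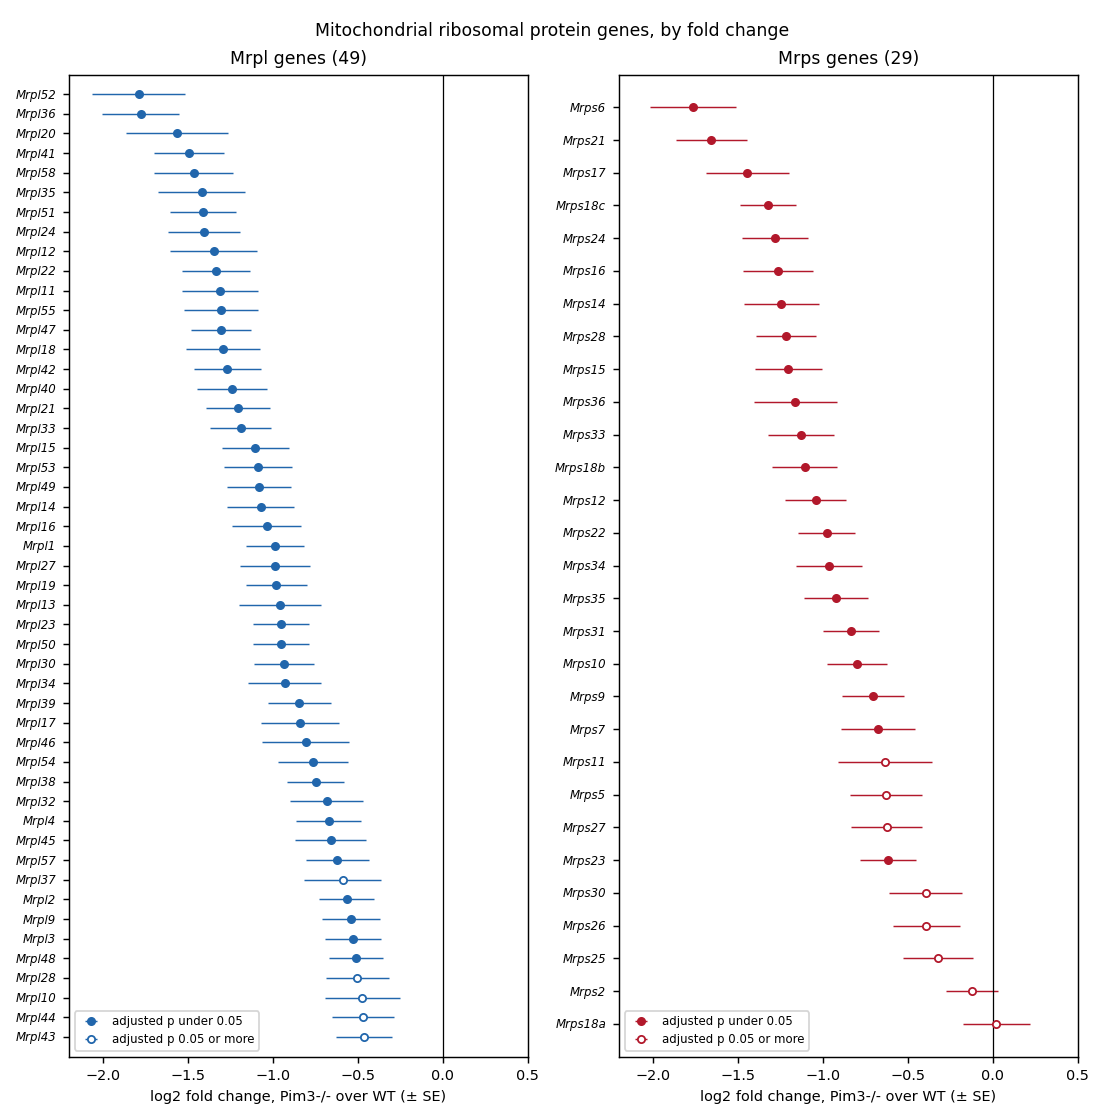
Log2 fold change of each of the 49 Mrpl and 29 Mrps genes, Pim3-/- over WT (x axis), with bars for the standard error of the edgeR fit. Filled points passed an adjusted p of 0.05. Only Mrps18a lies at or above 0, and the lowest values are those of Mrpl52, Mrpl36 and Mrps6.

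Summed over the 78 genes, the libraries held 159264 and 166049 counts in WT replicates 1 and 2 and 118378 and 88256 in Pim3-/- replicates 1 and 2. This was 0.688% and 0.647% of all counts in WT, and 0.517% and 0.401% in the Pim3-/- libraries. After scaling, the sum stood at 1.06 and 0.937 of the WT mean in WT and at 0.567 and 0.438 in the Pim3-/- libraries. The groups did not overlap on any of these scales. The Pim3-/- libraries lay further apart from each other in the share of counts than the WT libraries did, with an SD of 0.0824 percentage points against 0.0289 (n = 2 each).

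Both subunits contributed. Beside 16.2% of all tested genes called lower, 44 of the 49 Mrpl genes were lower, with a median log2 fold change of -0.99. Of the 29 Mrps genes 21 were lower, with a median of -0.96. Without WT replicate 1 these counts were 11 and 4, and without WT replicate 2 27 of the Mrpl genes were lower. The count of Mrpl genes over that of Mrps genes, a ratio that no scaling factor changes, was 2.29 and 2.26 in WT and 2.09 and 2.03 in the Pim3-/- libraries. The groups did not overlap, and the mean ratio went from 2.28 ± 0.0153 to 2.06 ± 0.0424 (SD, n = 2 each). The letter in the symbol does not always give the place of the protein. Mrps18a and Mrps30 belong to the large subunit in the structure of the mammalian mitoribosome, and Mrps36 is a subunit of the 2-oxoglutarate dehydrogenase complex. Assigned by structure, 44 of 51 large subunit genes and 20 of 26 small subunit genes were lower, with medians of -0.98 and -0.97, and the ratio was 2.50 and 2.46 against 2.32 and 2.34.

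**Figure D2:**
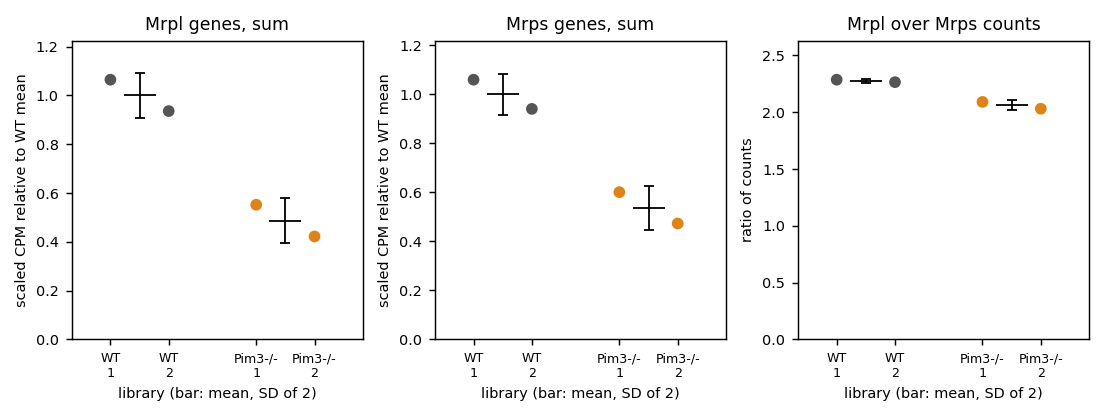
Summed scaled CPM of the Mrpl and the Mrps genes relative to the WT mean (left and centre, y axis), and the ratio of Mrpl to Mrps counts (right, y axis), in each library (x axis), with bars for the mean and SD of the 2 libraries of a group. Both sums lie between 0.422 and 0.601 in the Pim3-/- libraries, and the ratio moves from 2.28 to 2.06.

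Calls were found among genes with a counterpart in the bacterial ribosome and among those classed as added in mitochondria. Beside 16.2% of all tested genes called lower, 41 of the 46 with a bacterial counterpart were lower, with a median log2 fold change of -1.06. Of the 31 classed as particular to mitochondria 23 were lower, with a median of -0.83. This class held Mrps18a and Mrps18b, although their proteins are relatives of a bacterial protein. The order was the same within the large subunit by structure (medians of -1.01 and -0.81) and within the small subunit (-1.21 and -0.88). The difference between the classes was not tested, and the transcripts of the first class were shorter, with a median of 1190.5 bases against 1424 bases.

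In the large subunit, the 6 lowest log2 fold changes belonged to Mrpl52, Mrpl36, Mrpl20, Mrpl41, Mrpl58 and Mrpl35. Mrpl52 (chromosome 14, 54426909 to 54429756), a protein with no bacterial counterpart, had 3916 and 3691 counts in WT replicates 1 and 2 and 1788 and 1013 in Pim3-/- replicates 1 and 2. Both Pim3-/- libraries lay far below the WT pair, and replicate 2 was the lower one. The level went from 184 ± 29.3 to 53.1 ± 19.6 CPM (SD, n = 2), with a fitted log2 fold change of -1.79 (SE 0.27, adjusted p = 0.0056). Mrpl36 (chromosome 13, 73328513 to 73332178), the counterpart of the small bacterial zinc-binding protein L36, had 2014 and 1938 counts in WT against 882 and 582 in Pim3-/- libraries, a log2 fold change of -1.78 (SE 0.23, adjusted p = 0.0041). It overlaps Ndufs6 on the opposite strand, and whether counting used the strand is not given in the sources used here. Mrpl20, whose bacterial counterpart is needed for assembly of the large subunit, had 3683 and 3513 counts in WT against 2047 and 1049 in the Pim3-/- libraries, a log2 fold change of -1.57 (SE 0.30). Its 2 Pim3-/- libraries were the furthest apart of these 6 genes, with a difference of -0.91 in log2 CPM between replicate 2 and replicate 1.

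Mrpl41, a protein that is particular to mitochondria, had 801 and 858 counts in WT against 435 and 308 in the Pim3-/- libraries, a log2 fold change of -1.50 (SE 0.21). Mrpl58, also known as Ict1, is a peptidyl-tRNA hydrolase that became part of the ribosome and can release stalled chains. It had 1404 and 1486 counts in WT against 818 and 505 in the Pim3-/- libraries, a log2 fold change of -1.47 (SE 0.23). Mrpl35, the counterpart of bacterial L35, went from 2579 and 2514 counts in WT to 1526 and 893 in Pim3-/-, a log2 fold change of -1.42 (SE 0.26). All 6 had both Pim3-/- libraries below both WT libraries, and all but Mrpl20 were lower in every one of the 13 fits that were run.

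In the small subunit, Mrps6, Mrps21, Mrps17, Mrps18c, Mrps24 and Mrps16 had the lowest values, and all 6 have a bacterial counterpart. Mrps6 (chromosome 16, 92058270 to 92112227) had 897 and 957 counts in WT against 437 and 254 in the Pim3-/- libraries, or 44.5 ± 3.23 against 13.1 ± 4.60 CPM (SD, n = 2). The fit put it at a log2 fold change of -1.76 (SE 0.25, adjusted p = 0.0051), and its exons overlap those of Slc5a3 on the same strand. Mrps21 (chromosome 3, 95862634 to 95871519) had 1582 and 1475 counts in WT against 708 and 525 in the Pim3-/- libraries, a log2 fold change of -1.65 (SE 0.21, adjusted p = 0.0039). Mrps17, a protein that binds the rRNA early in assembly of the bacterial subunit, went from 2284 and 2663 counts in WT to 1441 and 853 in Pim3-/-, a log2 fold change of -1.44 (SE 0.24). Mrps24 and Mrps16 had log2 fold changes of -1.28 (SE 0.20) and -1.26 (SE 0.20). Mrps24 had 2618 and 2533 counts in WT against 1516 and 1170 in the Pim3-/- libraries, and its exons overlap Urgcp on the same strand. Mrps16 had 2629 and 2486 counts in WT against 1547 and 1159 in the others. Without WT replicate 1, neither Mrps24 nor Mrps16 was called.

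Members with a role of their own gave a range of values. Mrpl12, Mrpl11 and Mrpl10 form the stalk that recruits translation factors to the large subunit. Mrpl12 had 4258 and 4318 counts in WT against 2689 and 1582 in the Pim3-/- libraries, a log2 fold change of -1.35 (SE 0.25). Mrpl11 had 3683 and 3696 counts in WT against 2260 and 1506 in the others, a log2 fold change of -1.31 (SE 0.22). Mrpl10 had 1956 and 2174 counts in WT against 2300 and 1457 in the Pim3-/- libraries and did not pass, at -0.47 (SE 0.22, adjusted p = 0.133). In raw counts Pim3-/- replicate 1 was above both WT libraries for Mrpl10 and below both for Mrpl11 and Mrpl12. Mrpl2 and Mrpl3, which surround the peptidyl transferase centre, were both lower by less than the median, at -0.57 (SE 0.16) and -0.53 (SE 0.16), and both calls were lost without WT replicate 1 or without WT replicate 2. With the scaling by level and transcript length described further on, Mrpl2 had a value of 0.25 and was not called.

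Mrpl45 lines the exit of the tunnel and faces the inner membrane, where the new chains are inserted. It had 3783 and 4311 counts in WT against 3833 and 2631 in the Pim3-/- libraries, a log2 fold change of -0.66 (SE 0.21, adjusted p = 0.0443), and its call was lost without either WT replicate. Mrpl44 carries a fold related to RNase III and did not pass, at -0.47 (SE 0.18, adjusted p = 0.0816). Mrpl57 was lower, at -0.62 (SE 0.18, adjusted p = 0.0365), again not without WT replicate 1 or WT replicate 2. Mrps12, part of the decoding site, had 1237 and 1349 counts in WT against 892 and 692 in the Pim3-/- libraries, a log2 fold change of -1.04 (SE 0.18), with no call without WT replicate 1. Mrps27, a pentatricopeptide repeat protein, just missed the threshold, at -0.62 (SE 0.21, adjusted p = 0.0524). Mrps36 of the 2-oxoglutarate dehydrogenase complex was lower, at -1.16 (SE 0.24), and was likewise not called without WT replicate 1.

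The 3 Mrps18 genes encode relatives of a single bacterial protein, and only Mrps18b and Mrps18c were called. Mrps18c (chromosome 5, 100798627 to 100804471) had 940 and 1069 counts in WT against 537 and 474 in the Pim3-/- libraries, a log2 fold change of -1.32 (SE 0.17, adjusted p = 0.0039). Mrps18b (chromosome 17, 35910379 to 35916389) had 2344 and 2627 counts in WT against 1681 and 1228 in the others, a log2 fold change of -1.11 (SE 0.19, adjusted p = 0.0072). Its call was lost without WT replicate 1. Mrps18a (chromosome 17, 46110986 to 46128910) had 597 and 580 counts in WT against 856 and 658 in the Pim3-/- libraries, or 28.4 ± 3.93 against 28.8 ± 4.62 CPM (SD, n = 2). It was the only member with a value above 0, 0.021 (SE 0.20, adjusted p = 0.942), and the only one whose raw counts were higher in both Pim3-/- libraries apart from Mrps2. The ratio of Mrps18c to Mrps18a counts, which no scaling factor changes, was 1.57 and 1.84 in WT and 0.627 and 0.720 in the Pim3-/- libraries. For Mrps18b over Mrps18a it was 3.93 and 4.53 against 1.96 and 1.87. In both ratios the groups lay well apart, while Mrps18c over Mrps18b ran from 0.401 and 0.407 to 0.319 and 0.386. The difference in fold change between these genes was not tested.

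Beside Mrps18a, the 3 highest values of each subunit were those of Mrps2 and Mrps25 among the Mrps genes and of Mrpl43, Mrpl44 and Mrpl10 among the Mrpl genes, none of which passed. Mrps2 of the small subunit had 991 and 1170 counts in WT and 1246 in each Pim3-/- library, a log2 fold change of -0.12 (SE 0.15, adjusted p = 0.564). Mrps25 was at -0.32 (SE 0.21) and Mrpl43 at -0.46 (SE 0.16). Mrps30 was at -0.40 (SE 0.22), with 1577 and 1496 counts in WT against 1247 and 1703 in Pim3-/-, so that 1 clone lay below and the other above both WT libraries in counts. The 13 members that were not called were Mrpl10, Mrpl28, Mrpl37, Mrpl43, Mrpl44, Mrps2, Mrps5, Mrps11, Mrps18a, Mrps25, Mrps26, Mrps27 and Mrps30. With library totals, Mrps2, Mrps25, Mrps26 and Mrps30 had values above 0, and none of these was called.

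Levels per length differed widely between members in WT ESCs. In the large subunit, Mrpl52, Mrpl42 and Mrpl20 had the highest levels, 489 and 389, 351 and 319, and 251 and 203 CPM per kb of transcript in WT replicates 1 and 2. Mrpl19, Mrpl32 and Mrpl1 had the lowest, between 7.07 and 12.8 CPM per kb in either replicate. In the small subunit, Mrps21, Mrps24 and Mrps18b were highest, with means of 151, 125 and 110 CPM per kb, and Mrps25, Mrps26 and Mrps35 lowest, with means of 12.0, 14.1 and 19.1 CPM per kb. Part of this order comes from the length of the annotated principal transcript, which was 418 bases for Mrpl52 and 5000 bases for Mrpl19. Mrpl42, the large subunit protein with the second highest level, was lower in the Pim3-/- libraries at -1.27 (SE 0.20), and of the 6 genes with the lowest levels Mrpl19, Mrpl32, Mrpl1 and Mrps35 were lower. Over the 78 members, log2 fold changes had a Pearson r of -0.13 with the mean log2 CPM, 0.31 with log2 transcript length and 0.037 with transcript GC content. These are descriptions over genes that share the same 4 libraries.

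The members were lower in one Pim3-/- clone than in the other. Relative to the WT mean, the median of the 78 members was -0.85 in Pim3-/- replicate 1 and -1.18 in replicate 2. Members were lower in replicate 2 than in replicate 1 in 72 of 78 cases (92.3%), against 52.8% of all tested genes, with a median difference of -0.37. Genes of cytosolic ribosomal proteins showed the opposite order, with only 8 of 83 lower in replicate 2 and a median difference of 0.23. Subunits of the respiratory chain that are encoded in the nucleus were ordered as the mitoribosomal genes were, with 68 of 81 lower in replicate 2. The 2 WT libraries differed less, with a median of -0.18 for replicate 2 minus replicate 1 in the mitoribosomal genes against 0.0026 over all tested genes.

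**Figure D3:**
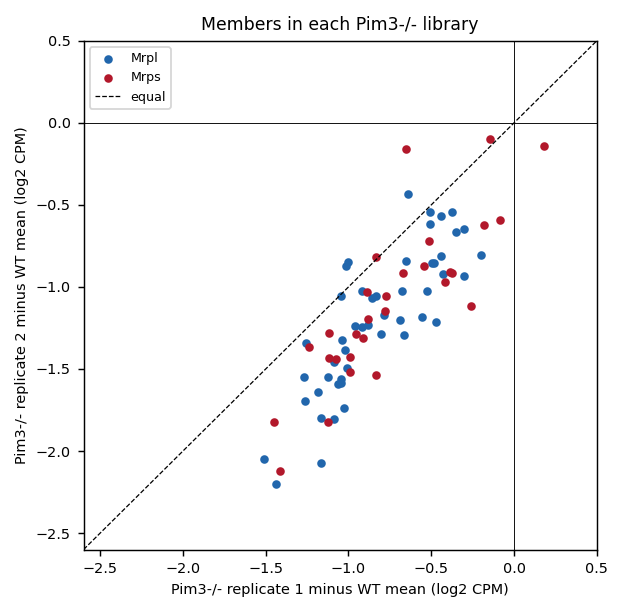
Difference from the WT mean of each mitoribosomal protein gene in Pim3-/- replicate 1 (x axis) and replicate 2 (y axis), in log2 CPM. The dashed line marks equal values, and 72 of the 78 points lie below it.

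The level and the length of a transcript moved with the fold change over all genes, and the mitoribosomal genes are well expressed and mostly short. Over all tested genes, the median log2 fold change was 0.86 below a mean of 0 log2 CPM and -0.73 above 8 log2 CPM. Among protein-coding genes it was -0.72 for transcripts under 1000 bases, of which 47.4% were lower, and 0.48 for those of 5000 bases or more, of which 4.87% were lower. The members ran from 418 to 7300 bases, with a median of 1302 bases, against 2901 bases for all tested protein-coding genes. Among protein-coding genes within the members' range of levels and with transcripts under 2000 bases, the median was -0.68 and 56.0% of 1891 were lower. Of the 53 members of this kind 45 were lower, with a median of -1.04. Among those of 2000 bases or more, the median was 0.0050 and 15.8% of 5244 were lower, and of the 25 members 20 were lower, with a median of -0.92. With a scaling that follows the level of a gene, chosen after seeing the data, 46 members were lower against 12.6% of all genes, with a median of -0.76. With one that follows level and transcript length, also chosen after seeing the data, 25 members were lower against 8.66% of all genes, with a median of -0.47. With the last scaling 71 of the 78 had a value below 0. What gives rise to the relation with length was not tested.

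**Figure D4:**
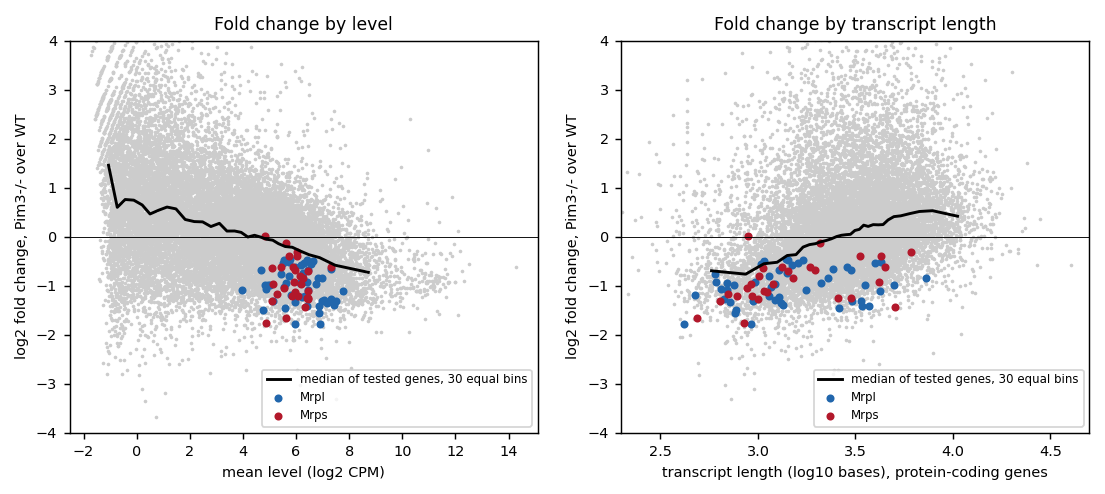
Log2 fold change, Pim3-/- over WT (y axis), against mean log2 CPM for all tested genes (left) and against log10 transcript length for tested protein-coding genes (right), in grey, with the Mrpl genes in blue and the Mrps genes in red. The black line is the median in 30 bins of equal gene number, genes beyond the y axis are not drawn, and most members lie below the line.

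Across the 13 fits, which differ in scaling, filter, test and the library left out, 12 members were lower in every one. These were Mrpl24, Mrpl35, Mrpl36, Mrpl41, Mrpl47, Mrpl51, Mrpl52 and Mrpl58 of the large subunit and Mrps6, Mrps17, Mrps18c and Mrps21 of the small subunit. Mrps6 kept the largest difference at its weakest, -1.23, followed by Mrpl36 at -1.09 and Mrpl58 at -1.01. In the 9 fits with all 4 libraries, 20 members were always lower. For neither count was the share of all tested genes worked out, so neither says how unusual the members are.

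Proteins of the mitoribosome that carry other symbols were mostly lower too, beside 16.2% of all tested genes called lower. Of 5, Chchd1, Aurkaip1, Ptcd3 and Gadd45gip1 were lower, and Dap3, a GTP-binding protein of the small subunit, had a log2 fold change of -0.22 (SE 0.19) without a call. Chchd1 had 2203 and 2064 counts in WT against 1149 and 1104 in the Pim3-/- libraries, a log2 fold change of -1.26 (SE 0.18). Without WT replicate 1, none of the 5 was called. Assembly factors were split, beside the same 16.2% of all tested genes. Of 26, 13 were lower, with a median of -0.60, and the lowest adjusted p belonged to Rpusd4, a pseudouridine synthase of the mitochondrial rRNA (-1.08, SE 0.16), and Nsun4, an RNA methyltransferase (-1.09, SE 0.22). Others, such as the GTPase Noa1 at 0.27 (SE 0.16) and the helicase Dhx30 at 0.30 (SE 0.19), had values above 0 and were not called.

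Factors that work with the ribosome were called lower in part, beside 16.2% of all tested genes. Of 15 translation factors 4 were lower (26.7%), led by Mrrf, the recycling factor (-1.17, SE 0.17), and Slirp, an RNA-binding protein that stabilises mitochondrial mRNAs (-1.11, SE 0.18). Of 17 mitochondrial tRNA synthetases 5 were lower (29.4%), with Fars2 (-1.02, SE 0.17) and Cars2 (-0.84, SE 0.16) first, and the median of the list was -0.17. Of 16 tested genes for the expression and upkeep of mitochondrial DNA 5 were lower (31.2%), with Hsd17b10 (-1.57, SE 0.18) and Trmt10c (-0.67, SE 0.19) first, which are both subunits of mitochondrial RNase P. Without WT replicate 1, no translation factor, no synthetase and no assembly factor was called, and 1 gene of mitochondrial DNA expression was, where 1.88% of all genes were lower. Without WT replicate 2 these numbers were 2, 1, 2 and 1, in the same order, where 5.35% of all genes were lower. Without Pim3-/- replicate 1, where 27.5% of all genes were lower, 11 translation factors, 8 synthetases and 9 genes of mitochondrial DNA expression were lower. Without Pim3-/- replicate 2, where 25.3% were, these were 7, 7 and 8. None of these 4 lists held a gene that was called higher with TMM factors and all 4 libraries. With library totals, only 2, 1, 2 and 1 were lower, and 3 synthetases and 4 assembly factors were higher.

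**Figure D5:**
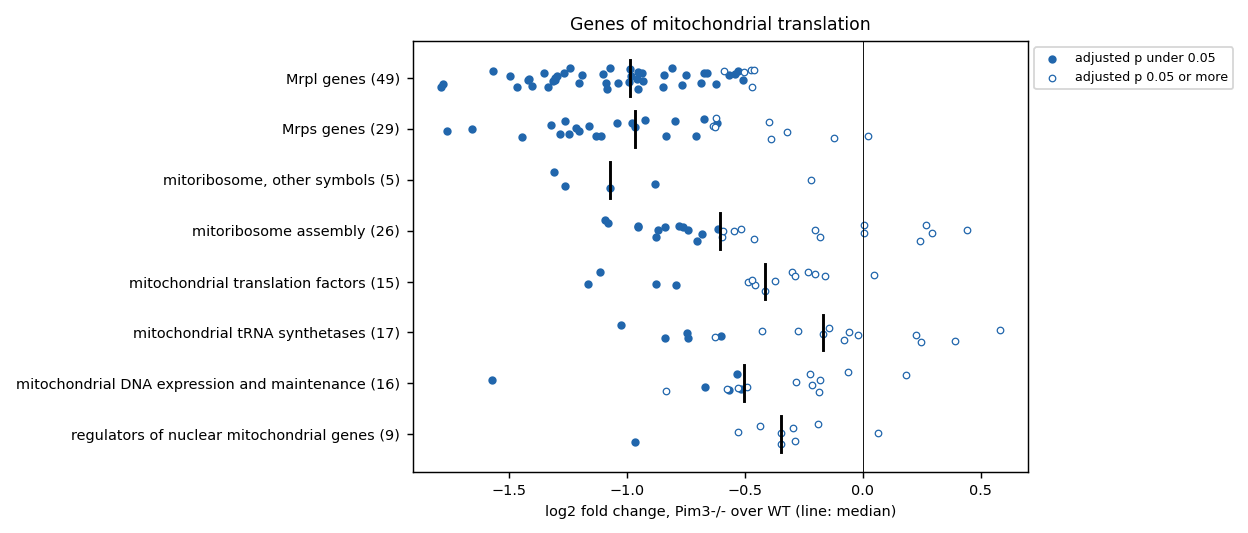
Log2 fold change, Pim3-/- over WT (x axis), of the Mrpl and Mrps genes and of the other lists of mitochondrial translation (y axis, number of tested genes in brackets). Points are genes, filled where the adjusted p was under 0.05, and lines are medians, which run from -1.07 for mitoribosomal proteins with other symbols to -0.17 for tRNA synthetases.

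Of 9 tested regulators of nuclear genes for mitochondria 1 was lower (11.1%), beside 16.2% of all tested genes. This was Mycn, which had 1486 and 1897 counts in WT against 1226 and 945 in the Pim3-/- libraries, a log2 fold change of -0.97 (SE 0.18, adjusted p = 0.0088), with no call without either WT replicate or with library totals. Nrf1 was at -0.35 (SE 0.16), Gabpa at -0.30 (SE 0.18) and Yy1 at -0.19 (SE 0.18), all without a call, and Ppargc1a had 0 counts in each library. The products of mitochondrial DNA could not be followed. Its 13 protein genes and 2 rRNA genes are listed at 0 in all 4 libraries, so the counts say nothing about the RNAs that the mitoribosome contains or translates.

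Cytosolic ribosomal protein genes and nuclear genes of the respiratory chain are expressed more highly and were lower as well. Of 83 cytosolic ribosomal protein genes 65 were lower, with a median of -0.90, and of 81 tested respiratory chain genes 62 were lower and 1 higher, with a median of -0.94. Among all tested genes, 16.2% were lower and 17.6% higher. The 2 lists had median levels of 10.8 and 7.22 log2 CPM. Of all tested genes above 8 log2 CPM 54.2% were lower, and of those from 7 to 8 log2 CPM 46.4%. The counts of lower genes in both lists changed with the libraries and the scaling. They were 0 and 4 without WT replicate 1, where 1.88% of all genes were lower, and 6 and 35 without WT replicate 2, where 5.35% were. With library totals, where 5.93% were, they were 13 and 25. With the scaling that follows level they were 1 and 28, against 46 mitoribosomal genes and 12.6% of all genes, and with the scaling that follows level and length 0 and 2, against 25. The difference between these lists was not tested.

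Promoter windows were searched for the letters of known motifs. A window of 300 bases, 250 before to 50 after the RefSeq start site (GRCm38.p6), was at hand for 69 of the 78 genes. The letters CCGGAAG, which ETS factors such as GABP bind, were found on either strand in 25 of the 69 windows (36.2%), against 9.12% of all 27025 windows and 16.9% of those of tested genes. The letters AAGATGGC of YY1 were found in 12 (17.4%), against 2.88% of all windows and 4.38% of those of tested genes. The palindromic 10-letter core of the NRF1 site was found in 3 (4.35%), against 0.977% and 1.94%. At least 1 of these 3 was present in 36 of the 69 and none in the rest, and in the 3 windows with both ETS and YY1 letters these did not overlap. For neither count was the share of all windows worked out, so neither says how unusual the members are. CCAAT was found in 39.1%, against 37.9% of all windows and 38.7% of those of tested genes. The E-box CACGTG was found in 7.25%, against 7.24% and 10.1%, and TATAAA in 5.80%, against 14.2% and 7.10%. These are matches of letters only, and none of the windows was tested for binding.

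Windows are shown for the member with the lowest log2 fold change, Mrpl52, and for the Mrps18 genes, of which only Mrps18a was not called. Capitals mark ETS or YY1 letters on either strand, so that ETS reads CCGGAAG or CTTCCGG and YY1 reads AAGATGGC. Mrpl52 is at chr14:54426659-54426958 on the plus strand, Mrps18a at chr17:46110754-46111053 on the plus strand, Mrps18b at chr17:35916391-35916690 on the minus strand and Mrps18c at chr5:100798509-100798808 on the plus strand.
Mrpl52: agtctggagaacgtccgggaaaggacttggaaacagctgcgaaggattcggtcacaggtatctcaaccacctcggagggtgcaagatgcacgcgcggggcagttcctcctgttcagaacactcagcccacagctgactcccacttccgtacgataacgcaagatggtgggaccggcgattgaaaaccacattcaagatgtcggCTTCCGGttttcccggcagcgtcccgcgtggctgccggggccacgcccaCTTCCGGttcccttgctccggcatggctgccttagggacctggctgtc
Mrps18a: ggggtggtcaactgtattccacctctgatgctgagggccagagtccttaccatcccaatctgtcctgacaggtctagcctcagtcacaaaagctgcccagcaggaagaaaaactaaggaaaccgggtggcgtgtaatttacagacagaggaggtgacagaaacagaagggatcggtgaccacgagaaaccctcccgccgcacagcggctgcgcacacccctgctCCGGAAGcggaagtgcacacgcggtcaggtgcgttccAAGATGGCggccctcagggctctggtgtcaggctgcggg
Mrps18b: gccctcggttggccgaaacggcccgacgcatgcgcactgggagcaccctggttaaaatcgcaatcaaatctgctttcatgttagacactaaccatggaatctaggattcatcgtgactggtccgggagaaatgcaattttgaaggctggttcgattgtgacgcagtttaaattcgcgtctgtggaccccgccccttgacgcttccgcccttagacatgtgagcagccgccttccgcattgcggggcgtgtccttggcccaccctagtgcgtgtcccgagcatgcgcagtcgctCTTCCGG
Mrps18c: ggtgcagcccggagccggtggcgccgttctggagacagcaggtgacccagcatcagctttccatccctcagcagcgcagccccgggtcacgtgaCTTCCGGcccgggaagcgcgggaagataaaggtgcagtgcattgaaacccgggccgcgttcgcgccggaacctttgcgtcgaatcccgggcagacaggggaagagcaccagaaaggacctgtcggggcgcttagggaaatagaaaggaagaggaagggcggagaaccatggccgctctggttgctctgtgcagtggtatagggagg
All 4 windows held ETS letters, 2 copies in Mrpl52 and 1 in each Mrps18 gene, and Mrps18a alone of the 4 held YY1 letters. ETS letters were thus in the window of Mrps18a, which was not called, as in those of the other 3, which were lower. Over all windows, members with ETS letters had a median log2 fold change of -1.09, with 21 of 25 lower, and those without had one of -0.95, with 35 of 44 lower.

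Many members start near the start of another gene on the opposite strand. Whether such genes share a promoter was not tested. For 33 of the 78 (42.3%), another protein-coding gene starts on the opposite strand within 1000 bases of the start, against 15.2% of the 14463 tested protein-coding genes. Mrpl46 and Mrps11 are such a pair and were at -0.81 (SE 0.25) and -0.63 (SE 0.27), the first called and the second not. Among the 31 partners that are not members, 9 were lower and 2 higher, beside 17.6% and 19.0% of all tested protein-coding genes, with a median of -0.28, while the members beside them had a median of -0.95. Over these pairs the values of member and partner had a Pearson r of -0.016. Mrps18b stood beside Ppp1r10, a regulatory subunit of protein phosphatase 1, whose start lies 45 bases away. Ppp1r10 had 121 and 161 counts in WT against 1596 and 936 in the Pim3-/- libraries, a log2 fold change of 2.84 (SE 0.27, adjusted p = 0.0027), opposite to that of Mrps18b. Mrpl14 was at -1.07 (SE 0.20) beside Tmem63b at 0.59 (SE 0.16). Mrpl36 and Ndufs6, a subunit of complex I, were both lower, at -1.78 and -0.91, as were Mrpl49 and Fau, a cytosolic ribosomal protein fusion, at -1.08 and -0.80.

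The members lie on 17 chromosomes, with 11 on chromosome 11. For 33 of them an exon overlaps another annotated gene, in 28 cases one on the opposite strand, so that their counts are uncertain. Of the 45 without such an overlap 40 were lower. Near-identical copies are annotated under 5 pseudogene names, of which Mrpl48-ps had 62 to 103 counts per library Mrpl23-ps1 38 to 58 and the others at most 6, and reads shared between these and Mrpl48, Mrpl23 or Mrps36 could have been counted for either.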

How the data were processed

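The material was 4 RNA-seq libraries of E14 ESCs, 2 of WT and 2 of Pim3-/- cells. The authors deposited raw counts per gene, without normalization. The paper names Cutadapt and Hisat2 with mm10 and Ensembl genes, whereas the submitters' processing notes name Trim Galore, STAR, featureCounts and GRCm38. The strand setting and the treatment of reads with several locations are not given in the sources used here. The table of transposable elements was not used.

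Genes were filtered by filterByExpr (minimum count 10, minimum total 15), scaled by TMM factors and compared with edgeR's quasi-likelihood test (edgeR 4.0.16, limma 3.58.1, R 4.3.3), with Benjamini-Hochberg adjustment over 18444 genes. The procedure was tested on simulated data in which equal numbers of genes went up and down, without a trend by level or length. That test thus does not bear on the choice of scaling. Alternatives were DESeq2 size factors, library totals, no filter, DESeq2's Wald test (version 1.42.0), a filter of 10 counts in each library, a replicate block, the omission of each library, the subunit by structure and, chosen after seeing the data, scalings by loess (span 0.3) on level and on level and transcript length. With 1 library left out, the lone library is assumed to vary like the other group.

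Members named are, per subunit, the 6 lowest and 3 highest log2 fold changes, the 3 highest and 3 lowest WT levels per kb and members with a role of their own, and of other lists the 2 genes with the lowest adjusted p. Mrpl57 was named in addition, and other genes were named after their values were seen. The members and lists were chosen with earlier results of these data known. Transcripts, overlaps and coordinates are from GENCODE M21 (GRCm38), promoter windows from RefSeq. Plots used matplotlib 3.10.9 (Python 3.11.15). WT cultures and clones are separate samples per the paper's methods. The p-values rest on a spread that is pooled over WT cultures and Pim3-/- clones and drawn towards that of all genes. They do not measure how WT clones would differ from each other.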

Additional observations from a re-analysis of the deposited data

How the results depend on the processing

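The count of 65 lower members was 38 with library totals and 25 with scaling by level and length, and 15 to 75 with 1 library left out, lowest without WT replicate 1. For the large subunit, 44 became 24 with library totals, 29 with scaling by level and 18 with scaling by level and length, and 11 to 49 with 1 library left out. For the small subunit, 21 became 7 with scaling by level and length, and 4 to 26 with 1 library left out. The median relative to all tested genes, -1.05, was -1.28 without a filter, -0.78 with scaling by level and -0.46 with scaling by level and length, and -1.28 to -0.93 with 1 library left out. No member was called higher in any of these fits.

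Some of the members named in the text changed sign. Mrps18a was at -0.022 with DESeq2 size factors, -0.011 without a filter and -0.022 by DESeq2's Wald test, and ran from -0.20 to 0.16 with 1 library left out. With library totals, Mrps2 was at 0.33, Mrps25 at 0.13, Mrps26 at 0.063 and Mrps30 at 0.060. Mrps2 was at 0.090 with scaling by level and at 0.13 with scaling by level and length, which also put Mrpl10 at 0.0028, Mrpl2 at 0.25 and Mrpl43 at 0.058, and Mrpl2 alone of these had been called. The cause of these changes was not tested.

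The replicate numbers are shared by the groups, and whether they pair the libraries is not given in the sources used here. Deviations of same-numbered libraries from their group means correlated at 0.03 over 18444 genes. Since each group gives a single difference per gene, this value cannot settle whether the numbers pair the libraries. Among the members, replicate 2 lay below replicate 1 in both groups, with median differences of -0.18 in WT and -0.37 in Pim3-/-. With the replicate block in the fit, 69 members were lower, among them the 65 of the fit without it. With 2 libraries in each group, the spread within a group rests on a single difference, and single genes near the threshold are not settled by these data. Every member had at least 253 counts in each library, so that low counts limit none of them. Genotype and differences between single cultures or clones cannot be told apart.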
